A study of Mus musculus with 8 samples.

Results

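The genes of the major histocompatibility complex (MHC) and of antigen processing were compared between GFP-positive cells of ischemic and normal mouse kidneys. The set held 36 of 18193 measured genes. It comprised the 23 genes whose symbol starts with H2- and that have a probe set annotated to them alone, and 13 genes of antigen loading, processing and control. Of the 36 genes, 28 lie on chromosome 17, where the mouse MHC is, and 8 lie elsewhere. For the ischemic group, the left renal artery and vein of 5 mice were clamped for 45 minutes, and the kidney was taken 3 days later. These mice received buprenorphine for pain after surgery. The normal group held 3 control kidneys, which the labels call normal, sham and non-ischemic. All mice were 6-month-old males of the transgenic strain FSP1-eGFP on the C57BL/6 background, by the labels. In this strain the FSP1 (S100a4) promoter drives GFP, which is often used to mark fibroblasts, and GFP-positive cells were sorted from the digested kidney before their RNA was amplified and hybridised to Affymetrix arrays. The comparison asks how these sorted cells differ between an acutely injured kidney and a kidney without injury.

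MHC class I molecules present peptides from inside the cell to CD8 T cells and are carried by nearly all nucleated cells. Each is a heavy chain held by beta-2 microglobulin, and its peptide is cut by the proteasome, pumped into the endoplasmic reticulum by the TAP transporter and trimmed and loaded there. MHC class II molecules present peptides from the endosomes to CD4 T cells and are carried mainly by dendritic cells, macrophages and B cells. Their chains assemble on the invariant chain (Cd74), and H2-DM then exchanges its remnant for peptide. Ciita switches on the class II genes, Nlrc5 does so for the class I genes, and interferon gamma is the classic inducer of both.

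Of the arrays labelled male, 3 of 8 had a high signal of Xist, the RNA of the inactive X chromosome. Its level was 11.21 in ischemic 1, 9.39 in ischemic 2 and 11.01 in normal 1, and lay between 4.49 and 4.96 in the other 5 arrays, all on the scale log2(intensity + 16). Eif2s3y, a Y-linked gene, was at 5.84 in both ischemic 1 and normal 1, at 7.78 in ischemic 2 and between 7.68 and 8.87 in the others. Kdm5d and Uty, also Y-linked, were lowest in ischemic 1 and normal 1 as well. In ischemic 2 they were at 7.88 and 6.73, within the range of the arrays of low Xist signal. Ischemic 1 and normal 1 thus go against their sex label, while ischemic 2 had signal of both Xist and the Y-linked genes. Results are also given without these 3 arrays. Ischemic 1 stood apart as well, its correlations with the remaining arrays across genes having a median of 0.75, against 0.85 to 0.91 for the rest. The pair most alike, ischemic 5 and normal 3, joined both groups (0.98). S100a4 itself differed by 0.37 ± 0.25 (SE), with limma adjusted p = 0.893.

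The sequences just upstream of a few of these genes are shown because class II promoters, and in a related form class I promoters, are known for an upstream module that includes a CCAAT box, read as ATTGG on the other strand. Each is the stretch before the annotated start in the RefSeq table of GRCm38.p6, on the gene's strand, with CCAAT or ATTGG in capitals.
H2-Aa, chr17:34287824-34287943 (minus strand): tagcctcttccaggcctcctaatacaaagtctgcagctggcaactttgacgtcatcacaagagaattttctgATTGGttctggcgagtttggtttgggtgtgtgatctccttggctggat
H2-Eb1, chr17:34305747-34305866 (plus strand): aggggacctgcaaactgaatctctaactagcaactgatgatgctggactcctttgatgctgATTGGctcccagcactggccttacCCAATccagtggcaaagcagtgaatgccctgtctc
H2-DMb2, chr17:34145129-34145248 (plus strand): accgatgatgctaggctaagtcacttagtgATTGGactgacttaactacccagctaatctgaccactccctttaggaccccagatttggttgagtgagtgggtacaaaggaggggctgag
H2-D1, chr17:35262974-35263093 (plus strand): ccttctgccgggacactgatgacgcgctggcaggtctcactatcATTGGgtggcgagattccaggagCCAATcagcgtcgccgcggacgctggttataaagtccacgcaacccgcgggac
B2m, chr2:122147567-122147686 (plus strand): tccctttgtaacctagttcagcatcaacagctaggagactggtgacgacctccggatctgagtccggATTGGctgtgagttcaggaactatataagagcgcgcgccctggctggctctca
Psmb9 and Tap1, chr17:34187331-34187555 (plus strand, the whole interval between the starts of these 2 genes): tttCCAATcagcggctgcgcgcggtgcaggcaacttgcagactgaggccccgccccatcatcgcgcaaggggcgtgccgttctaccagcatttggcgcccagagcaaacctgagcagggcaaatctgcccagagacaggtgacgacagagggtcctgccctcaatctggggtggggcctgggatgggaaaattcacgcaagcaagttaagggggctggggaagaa
The box began 48 bases before the start of H2-Aa, 90 before that of H2-DMb2 and 53 before that of B2m. H2-Eb1 had it at 59 and 35 bases, on opposite strands, and H2-D1 at 76 and 53 bases. Psmb9 and Tap1 are transcribed away from each other out of the 225 bases shown. Of the 36 genes, 24 had an entry in the promoter table, which covers 27025 genes. CCAAT lay on either strand within 250 bases upstream in 18 of the 24 (75%), against 37.5% of all genes there. A gene counted when any of its promoters held the letters, and the box between Psmb9 and Tap1 counts for both. The box was present in 3 of 3 class II chain genes with an entry and 4 of 4 class II accessory genes. For class I chains the count was 6 of 8, and for class I loading genes 4 of 7. The interferon response core is GAAA, 2 bases of any kind and GAAA again. It was found for 1 of the 24, B2m (4.17%, against 3.46% of all genes there). The STAT element TTCNNNGAA was found for 3, H2-DMb2, H2-M3 and Psmb8 (12.5%, against 8.13% of all genes there). A match to letters is a description and not a binding site.

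In the sorted cells none of the MHC genes passed the test for a difference between the groups. With limma, 0 of the 36 genes had an adjusted p under 0.05, as did 0% of all 18193 genes. At an unadjusted p under 0.05, 1 of the 36 genes was higher in ischemic arrays, H2-DMb2 (2.11% of all genes), and 0 were lower (5.02% of all genes). In either direction that count was 5 without ischemic 1 (Ciita, H2-DMa, H2-DMb2, Psmb8 and Tapbp), 3 without normal 3 (H2-DMb2, H2-Ke6 and Tap1) and 0 without normal 1. Of all 18193 genes, 633 were higher and 919 lower at that p without ischemic 1, 601 and 1113 without normal 3, and 191 and 617 without normal 1. H2-DMb2 was not called in this way without normal 1, normal 2 or the arrays of high Xist signal, or with ribosomal centring, array weights or a replicate block. In 27 of the 36 genes (75%) the ischemic mean was above the normal mean, against 54.8% of all genes. The median difference was 0.19 on the log2 scale over the 36 genes and 0.041 over all genes. The count depended on the scaling and the arrays. It was 13 (all genes 26%) with arrays centred on ribosomal protein genes, which put the median of all genes at −0.22, 23 (51.8%) with arrays centred on their medians, 17 (52%) with limma array weights and 16 (51%) without the arrays of high Xist signal. The pathway and marker lists below were not rerun under those scalings. Their counts stand beside the same shares of all genes, 54.8% above 0 and 1.89% with all ischemic arrays above all normal ones. Ischemic and normal arrays overlapped in 35 of the 36 genes. In the remaining 1, H2-Ke6, all ischemic arrays lay below all normal arrays, as in 3.44% of all genes, and in 0 of the 36 did all lie above, against 1.89% of all genes. A difference of 1 or more in either direction was seen in 2 genes, H2-DMb2 and Tap1 (7.9% of all genes). Of the 36 genes, 26 had a mean level no lower than 5.93, the median gene's level, and are called bright here. The other 10 were dim, and on this scale the change of a dim gene is understated. The number of arrays limits the precision of every value, and in RNA of whole sorts a lower share of cells of a type and less RNA per cell cannot be told apart.

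**Figure D1:**
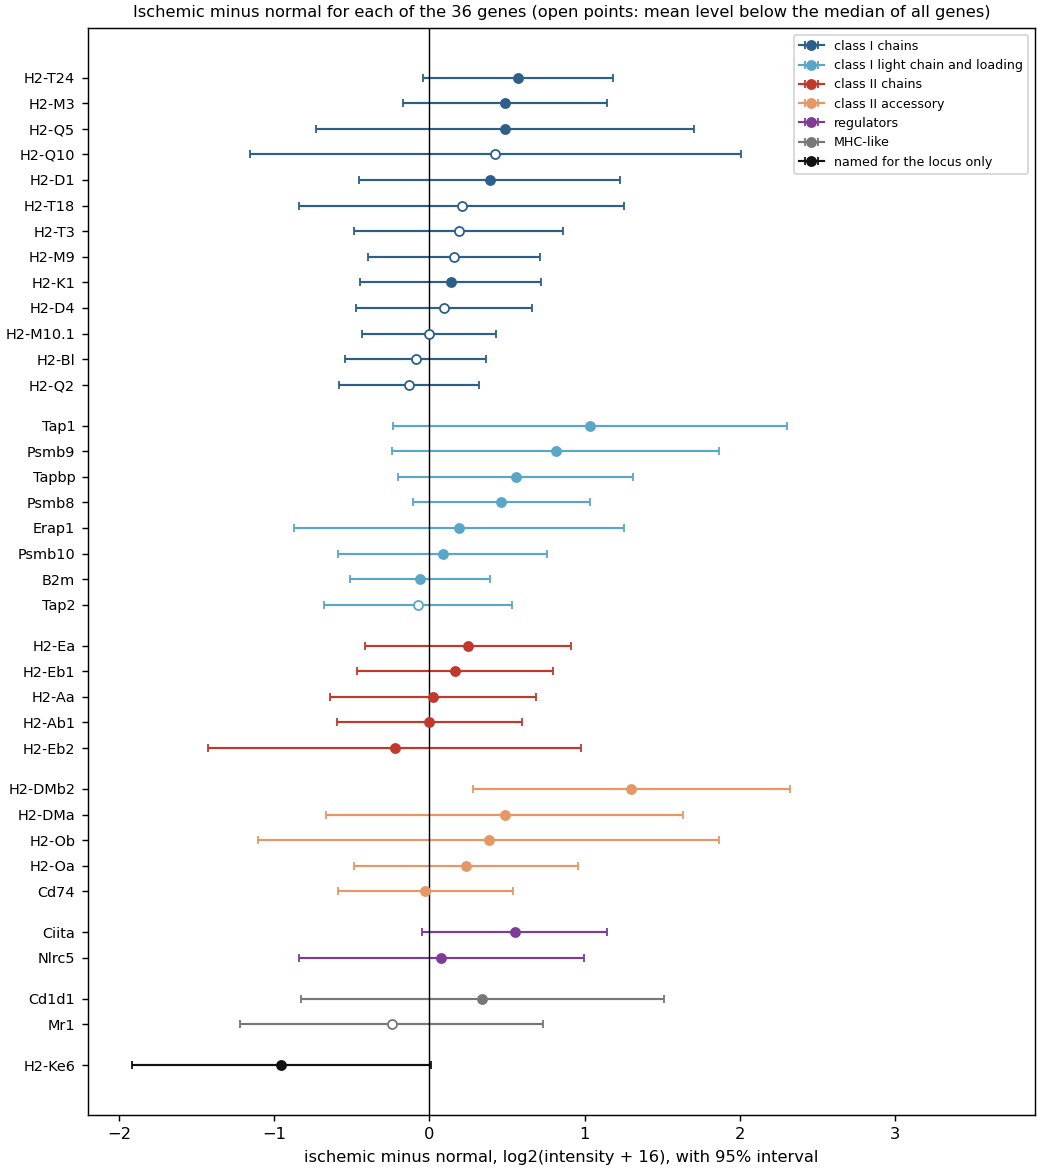
Difference between ischemic and normal arrays (log2 scale, 5 ischemic and 3 normal arrays) for the 36 genes, grouped by role, with the 95% interval of limma. Every interval except that of H2-DMb2 includes 0, and most points lie to the right of 0.

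Class II chains form the peptide-binding molecule itself. All 5 genes of this group were bright in every array, and H2-Aa and H2-Ab1 had almost the same mean in both groups. H2-Aa, the alpha chain of the A molecule, had 11.80, 11.91, 10.84, 11.74 and 11.32 in ischemic 1 to 5, against 11.35, 11.76 and 11.39 in normal 1 to 3. H2-Ab1, its beta chain, had 12.08, 12.35, 11.46, 12.29 and 11.74 in the ischemic arrays, against 11.92, 12.16 and 11.87 in the normal arrays. In both genes the ischemic arrays lay on both sides of the normal ones, with ischemic 3 lowest of all 8 and ischemic 2 highest. H2-Aa averaged 11.52 ± 0.44 over ischemic arrays (SD, n = 5), against 11.50 ± 0.23 over normal ones (SD, n = 3). That difference was 0.02 ± 0.29 (SE), with a 95% interval from −0.64 to 0.69 (limma adjusted p = 0.995, two-sided exact permutation p = 0.911). For H2-Ab1 the interval ran from −0.59 to 0.60 around 0.0004 (limma adjusted p = 1, exact permutation p = 1). A change of these chains within such an interval was not detectable with these arrays.

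H2-Eb1, the beta chain of the E molecule, had 11.45, 11.68, 10.82, 11.73 and 11.02 in the ischemic arrays, against 10.98, 11.44 and 11.10 in the normal arrays. Its order of ischemic arrays was close to that of H2-Aa, with ischemic 3 again lowest, and the difference was 0.16 ± 0.28 (limma adjusted p = 0.964, exact permutation p = 0.589). H2-Ea had 11.45, 11.72, 11.56, 11.78 and 11.90 in the ischemic arrays, against 10.73, 11.83 and 11.74 in the normal arrays. Here normal 1 was the low array, and the difference of 0.25 ± 0.29 (limma adjusted p = 0.954, exact permutation p = 0.50) was −0.10 without it. C57BL/6 mice are known for a deletion at the promoter of this gene that silences the E alpha chain, and the RefSeq table lists it as a transcribed pseudogene. Even so, 2 of its 3 probe sets were bright in all 8 arrays, and their differences were 0.25 and 0.28. The deposited intensities of the brighter one ran from 2518 to 3835 in ischemic and from 1914 to 3777 in normal arrays, and those of the dim one from 2.34 to 16.6 in ischemic and from 3.50 to 6.42 in normal arrays. What the bright probe sets read in these mice was not tested. H2-Eb2, a less studied class II beta gene, had 7.0, 8.02, 6.79, 8.11 and 7.12 in the ischemic arrays, against 8.82, 6.63 and 7.44 in the normal arrays. Normal 1 was its highest array and ischemic 3 its lowest ischemic one, with a difference of −0.22 ± 0.53 (limma adjusted p = 0.970, exact permutation p = 0.714) that was 0.37 without normal 1. Over the 5 class II chains, 4 differences were above 0 and 1 below, with a median of 0.02.

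**Figure D2:**
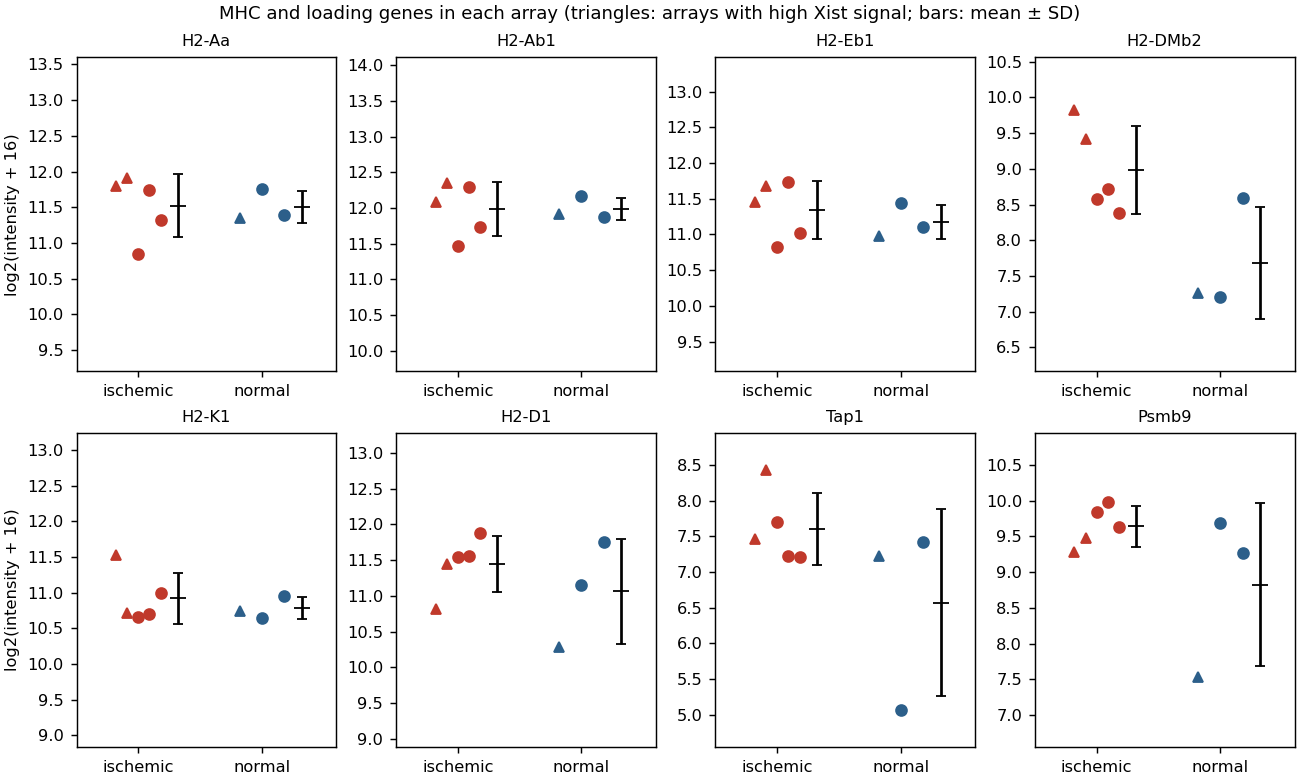
Level of 8 genes in each array, as log2(intensity + 16), with ischemic arrays to the left of normal ones, triangles for arrays with high Xist signal and bars for mean ± SD (n = 5 and n = 3). The H2-Aa, H2-Ab1 and H2-Eb1 points of the groups overlap throughout, H2-DMb2 has 3 ischemic arrays above all normal ones, and Tap1 and Psmb9 each have 1 low normal array.

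Among the genes that load class II molecules, H2-DMb2 had the largest difference of the 36. It encodes a beta chain of H2-DM, the peptide exchange factor. Its levels were 9.83, 9.41, 8.57, 8.72 and 8.38 in the ischemic arrays, against 7.26, 7.20 and 8.59 in the normal arrays. Normal 3 lay among the ischemic arrays, above ischemic 3 and ischemic 5, while normal 1 and normal 2 lay below all of them. Its mean over ischemic arrays was 8.98 ± 0.61 (SD, n = 5), against 7.68 ± 0.78 over normal ones (SD, n = 3), a difference of 1.30 ± 0.45 or 2.46-fold, with a 95% interval from 0.28 to 2.32. It did not pass limma over all genes (adjusted p = 0.497) or the two-sided exact permutation test (p = 0.0714), whose smallest possible p over the 56 splits of the arrays is 0.0179. All 3 probe sets of the gene had a positive difference, of 1.25, 1.30 and 2.43. In the last of these the deposited intensities were 781, 649, 341, 962 and 223 in the ischemic arrays, against 52.4, 24.7 and 425 in the normal arrays. The size depended on the arrays. It was 2.36 within the 3 arrays of high Xist signal and 0.66 within the other 5, and it ran from 1.06 to 1.75 with 1 array left out.

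H2-DMa, the alpha chain of the same factor, had 6.59, 8.52, 8.28, 8.91 and 8.31 in the ischemic arrays, against 7.14, 7.85 and 7.92 in the normal arrays. Ischemic 1 was below all others and the other 4 ischemic arrays were above all normal ones, which gave 0.48 ± 0.50 (limma adjusted p = 0.952, exact permutation p = 0.411) and 0.87 without ischemic 1. The 2 chains of H2-DM thus had opposite extremes in ischemic 1, where H2-DMb2 was at its highest. H2-Oa and H2-Ob form H2-O, which restrains H2-DM and is known from B cells. H2-Ob had 8.83, 7.73, 6.41, 7.33 and 5.63 in the ischemic arrays, against 6.62, 7.17 and 6.61 in the normal arrays. H2-Oa had 7.72, 7.87, 6.98, 7.50 and 6.61 in the ischemic arrays, against 7.16, 7.0 and 7.14 in the normal arrays. In both, ischemic 1, 2 and 4 lay above the normal arrays and ischemic 3 and 5 below them. The differences were 0.38 ± 0.65 for H2-Ob and 0.23 ± 0.32 for H2-Oa (limma adjusted p = 0.964 and 0.954, exact permutation p = 0.643 and 0.50), and that of H2-Ob was −0.03 without ischemic 1.

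Cd74, the invariant chain, had 12.26, 12.61, 11.93, 12.68 and 12.38 in the ischemic arrays, against 12.09, 12.63 and 12.47 in the normal arrays. Its groups overlapped almost fully, with ischemic 3 lowest of all 8 as in H2-Aa, H2-Ab1 and H2-Eb1, and the difference was −0.03 ± 0.25 with a 95% interval from −0.59 to 0.54 (limma adjusted p = 0.993, exact permutation p = 0.911). H2-DMb1 was measured only by probe sets shared with other genes and has no value here. Of the 5 accessory genes, 4 differences were above 0, with a median of 0.38, and 0 passed limma over all genes. That median was −0.04 within the arrays of low Xist signal and 0.63 within those of high signal.

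Markers of B cells differed between the same arrays. The mean level of the 9 measured B cell markers was 8.39, 6.91, 5.19, 5.07 and 4.93 in ischemic 1 to 5, against 6.20, 5.04 and 4.95 in normal 1 to 3, highest in the 3 arrays of high Xist signal. All 9 had a positive difference, with a median of 0.68, and 0 passed limma. Cd79b, a signalling chain of the B cell receptor, had 8.95, 7.92, 5.93, 6.70 and 5.86 in the ischemic arrays, against 7.52, 6.62 and 5.87 in the normal arrays. H2-Ob and H2-DMb2 were likewise at their highest in ischemic 1 and 2. In normal 1, where the B cell markers were higher than in the other normal arrays, H2-DMb2 was at 7.26, against 7.20 and 8.59 in normal 2 and 3, and H2-Ob was at 6.62, against 7.17 and 6.61. The part of B cells in these differences was not tested.

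Of the regulators, Ciita had 5.91, 6.84, 6.23, 6.41 and 6.05 in the ischemic arrays, against 5.61, 5.99 and 5.62 in the normal arrays. Here 4 ischemic arrays lay above all normal ones, with ischemic 1 below normal 2. The difference was 0.55 ± 0.26 (limma adjusted p = 0.745, exact permutation p = 0.0714), and its 3 probe sets, of which 1 was bright, all had a positive difference. Nlrc5 had 7.89, 7.31, 7.25, 7.74 and 6.71 in the ischemic arrays, against 6.91, 8.21 and 6.79 in the normal arrays. Normal 2 was the highest of all 8 arrays, and the difference of 0.08 ± 0.40 (limma adjusted p = 0.983, exact permutation p = 0.875) was 0.53 without it. Of the 10 genes known to act in class II transcription around Ciita, 9 had a positive difference, with a median of 0.50 against 0.041 over all genes, and 0 passed limma. Rfxank, a subunit of the RFX complex that binds class II promoters, differed by 0.44 ± 0.22 with groups apart (limma adjusted p = 0.780, exact permutation p = 0.0357). Irf8, a transcription factor of myeloid and B cells, differed by 0.79 ± 0.42 (limma adjusted p = 0.822). Nfya, of the factor that binds CCAAT, differed by 0.35 ± 0.20 with groups apart, and Creb1 by −0.07 ± 0.21.

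The class I heavy chains had small positive differences, and the classical ones overlapped widely. H2-K1 had 11.52, 10.72, 10.66, 10.71 and 11.00 in the ischemic arrays, against 10.75, 10.65 and 10.95 in the normal arrays. Apart from ischemic 1 the arrays of both groups lay within the same narrow range, and the difference of 0.14 ± 0.26 (limma adjusted p = 0.966, exact permutation p = 0.661) was −0.01 without ischemic 1. H2-D1 had 10.82, 11.45, 11.54, 11.56 and 11.89 in the ischemic arrays, against 10.28, 11.15 and 11.75 in the normal arrays. Normal 1 was lowest and ischemic 1 next to it, with a difference of 0.39 ± 0.37 (limma adjusted p = 0.947, exact permutation p = 0.357) that was −0.0008 without normal 1. H2-D1 had 9 probe sets, 8 of them bright, with differences from −0.25 to 0.43, and 6 of the 8 were positive. Class I genes are near-identical in sequence, so its probe sets can also read other class I transcripts. The bright probe set marked as specific to 1 sequence was the one at −0.25.

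Of the other class I genes, H2-M3, which presents formylated peptides, had 9.03, 8.80, 9.72, 9.17 and 9.55 in the ischemic arrays, against 8.43, 8.68 and 9.18 in the normal arrays. H2-T24, a gene of the T region, had 8.97, 9.22, 8.30, 9.13 and 8.63 in the ischemic arrays, against 8.22, 8.11 and 8.52 in the normal arrays. In H2-T24, 4 ischemic arrays lay above all normal ones and ischemic 3 below normal 3. In H2-M3 the count above all normal arrays was 2. The differences were 0.57 ± 0.27 for H2-T24 and 0.49 ± 0.29 for H2-M3 (limma adjusted p = 0.739 and 0.857, exact permutation p = 0.0714 and 0.143). H2-Q5, a Q region gene that RefSeq lists as a transcribed pseudogene, differed by 0.49 ± 0.53, and its ischemic levels ran from 6.87 to 9.09, around normal levels from 6.86 to 8.19. The other 8 class I genes, H2-Bl, H2-D4, H2-M9, H2-M10.1, H2-Q2, H2-Q10, H2-T3 and H2-T18, were dim. Their differences ran from −0.13 for H2-Q2 to 0.43 for H2-Q10, a secreted class I molecule known from the liver, whose value rested on ischemic 1 at 8.04. RefSeq lists H2-Bl and H2-D4 as transcribed pseudogenes as well. All 5 bright class I chains, H2-Q5 included, had a positive difference. Their median was 0.49, the value of H2-Q5 and, as rounded, of H2-M3. For H2-K1 the sign turned with arrays centred on medians (−0.041) or on ribosomal protein genes (−0.28), with array weights (−0.0034), without the arrays of high Xist signal (−0.0097) and without ischemic 1. For H2-D1 it turned with probe sets specific to 1 sequence and without normal 1, and for H2-T24, H2-M3 and H2-Q5 under none of the alternatives run. Over all 13 chains 10 were positive, with a median of 0.19. A further 15 probe sets read several genes of which at least 1 is an H2- gene. Of these, 14 had a positive difference (54.8% of all genes), with a median of 0.16, and 0 had groups apart.

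B2m, the light chain shared by all class I molecules, had 12.13, 12.18, 12.08, 12.18 and 12.32 in the ischemic arrays, against 11.95, 12.40 and 12.37 in the normal arrays. Its ischemic arrays lay between the normal ones, and the difference was −0.06 ± 0.20 with a 95% interval from −0.51 to 0.39 (limma adjusted p = 0.973, exact permutation p = 0.589). Tap1, a subunit of the peptide pump, had 7.46, 8.43, 7.70, 7.22 and 7.21 in the ischemic arrays, against 7.22, 5.07 and 7.43 in the normal arrays. Normal 2 was more than 2 log2 units below every other array, and the difference of 1.04 ± 0.55 (limma adjusted p = 0.822, exact permutation p = 0.0893) was 0.28 without it. The other 3 probe sets of Tap1 were dim, with differences from 0.01 to 0.20. Tap2, the partner subunit, was dim at 5.18, 5.60, 5.67, 5.66 and 6.09 in the ischemic arrays, against 5.39, 6.08 and 5.66 in the normal arrays, and differed by −0.07 ± 0.27 (limma adjusted p = 0.976). Tapbp, or tapasin, which bridges TAP and the class I molecule, had 9.78, 10.73, 10.27, 10.76 and 10.46 in the ischemic arrays, against 9.22, 10.02 and 10.29 in the normal arrays. Its lowest array was again normal 1, and the difference of 0.56 ± 0.33 (limma adjusted p = 0.859, exact permutation p = 0.161) was 0.24 without it. Erap1, the peptide trimming enzyme, had 5.33, 6.41, 7.13, 7.17 and 6.59 in the ischemic arrays, against 7.02, 5.86 and 6.13 in the normal arrays, a difference of 0.19 ± 0.47 (limma adjusted p = 0.970). Ischemic 1 was its lowest array, and the difference was −1.16 within the arrays of high Xist signal and 0.97 within the others. In the latter Erap1 was the only one of the 36 genes with an unadjusted limma p under 0.05 (adjusted p = 0.868). Over all genes 377 were higher and 596 lower at that p in the same arrays.

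The subunits of the immunoproteasome, the form of the proteasome adapted to make class I peptides, all had a positive difference, that of Psmb10 near 0. Psmb8 had 8.58, 9.22, 9.20, 8.56 and 9.13 in the ischemic arrays, against 8.33, 8.41 and 8.68 in the normal arrays. Psmb9 had 9.28, 9.47, 9.85, 9.98 and 9.63 in the ischemic arrays, against 7.53, 9.68 and 9.26 in the normal arrays. Psmb8 had 3 ischemic arrays above all normal ones, while Psmb9 had a single low array, normal 1. The differences were 0.46 ± 0.25 for Psmb8 and 0.81 ± 0.46 for Psmb9 (limma adjusted p = 0.822 and 0.846, exact permutation p = 0.0714 and 0.107), and that of Psmb9 was 0.17 without normal 1. Psmb10 had 9.71, 9.80, 8.84, 9.20 and 8.96 in the ischemic arrays, against 9.54, 9.08 and 9.04 in the normal arrays, a difference of 0.08 ± 0.29 (limma adjusted p = 0.973) with ischemic 1 and 2 highest. The sign for Psmb10 turned with arrays centred on medians (−0.17) or on ribosomal protein genes (−0.41), with array weights (−0.042), without the arrays of high Xist signal (−0.057) and without ischemic 1, ischemic 2 or normal 3. Among 7 genes of the standard proteasome, its activators and its assembly, 3 had a positive difference, with a median of −0.05, and 0 passed limma. Psmb5, the standard subunit that Psmb8 replaces, differed by −0.05 ± 0.27, Psmb6, which Psmb9 replaces, by −0.17 ± 0.55, and Psmb7, which Psmb10 replaces, by −0.30 ± 0.34. Psme1, a subunit of the interferon-inducible activator, differed by 0.61 ± 0.23 with groups apart (limma adjusted p = 0.600, exact permutation p = 0.0357), and Psme4, of another activator, by −0.47 ± 0.31. Of 8 helpers of class I loading in the endoplasmic reticulum, 7 had a positive difference, with a median of 0.18, and 0 passed limma. Uggt1, which checks glycoprotein folding, differed by 0.59 ± 0.25 with groups apart (limma adjusted p = 0.692, exact permutation p = 0.0179), the chaperone Hspa5 by 0.36 ± 0.26 and the translocon subunit Sec61a1 by 0.19 ± 0.20. Over the 8 light chain and loading genes 6 differences were above 0, with a median of 0.33.

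Cd1d1, which presents lipids, had 8.58, 7.83, 6.53, 6.65 and 6.46 in the ischemic arrays, against 6.68, 7.14 and 6.78 in the normal arrays. Ischemic 1 and 2 lay above all normal arrays and the other 3 below them, which gave 0.34 ± 0.51 (limma adjusted p = 0.962). Mr1, which presents vitamin metabolites of microbes, was dim at 4.72, 5.51, 5.77, 6.60 and 6.53 in the ischemic arrays, against 6.02, 6.22 and 5.97 in the normal arrays, a difference of −0.24 ± 0.43 (limma adjusted p = 0.965, exact permutation p = 0.679). H2-Ke6 carries the H2 symbol for its place only and encodes a hydroxysteroid dehydrogenase. It had 6.79, 7.64, 7.83, 7.60 and 7.78 in the ischemic arrays, against 9.53, 7.97 and 7.94 in the normal arrays, so that all ischemic arrays lay below all normal ones. Its difference of −0.95 ± 0.42 did not pass limma (adjusted p = 0.706) and had the smallest p the exact permutation test can give (0.0179), and it was −0.43 without normal 1 and −0.22 without the arrays of high Xist signal. Of 5 other genes of MHC-like molecules, 2 had a positive difference, with a median of −0.09, with Cd1d2 at −0.92 ± 0.58, Procr, the endothelial protein C receptor, at −0.46 ± 0.63 and Fcgrt, the neonatal Fc receptor, at 0.33 ± 0.24.

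Set side by side, the class I chains had a larger median difference than the class II chains. The class II accessory genes, at 0.38, had a larger one than the class I loading genes, at 0.33, but that order depended on the genes and arrays taken. Over bright genes it turned, with 0.38 for accessory and 0.46 for loading genes. Among other settings, it turned without ischemic 1 (0.14 against 0.52), with array weights (−0.028 against 0.48) and without the arrays of high Xist signal (−0.040 against 0.34). It was kept with a pseudocount of 1 (0.37 against 0.34) and a replicate block (0.42 against 0.32), among others. The median was 0.02 over the 5 class II chains and 0.19 over the 13 class I chains, or 0.49 over the 5 bright ones. The 0.19 is the value of H2-T3, a dim gene whose difference was −0.022 without ischemic 1. The class I median without that array was 0.12. The 0.49 is the value of H2-Q5, listed as a transcribed pseudogene, with H2-M3 at 0.49 as well. Class II minus class I, these medians gave −0.17 over all chains and −0.46 over the bright ones, with no test of that contrast. The contrast was −0.014 where probe sets specific to 1 sequence were preferred, and −0.072 without the arrays of high Xist signal. H2-K1, H2-T18 and H2-Aa had no such probe set and kept the one used before. The class I median under that preference, 0.14, was the value of H2-K1. Within each array, the mean level of the class II chains minus that of the bright class I chains was 0.87, 1.35, 0.88, 1.41 and 0.89 in ischemic 1 to 5, against 1.58, 1.68 and 1.09 in normal 1 to 3. Normal 3 lay below ischemic 2 and 4 in this measure, and normal 1 and 2 above all ischemic arrays. The mean level of the class II chains was between 10.30 and 11.14 in ischemic and between 10.71 and 10.77 in normal arrays, so the ischemic arrays spread to both sides of the normal ones. The mean of the bright class I chains was between 9.42 and 9.89 in ischemic and between 9.09 and 9.62 in normal arrays.

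**Figure D3:**
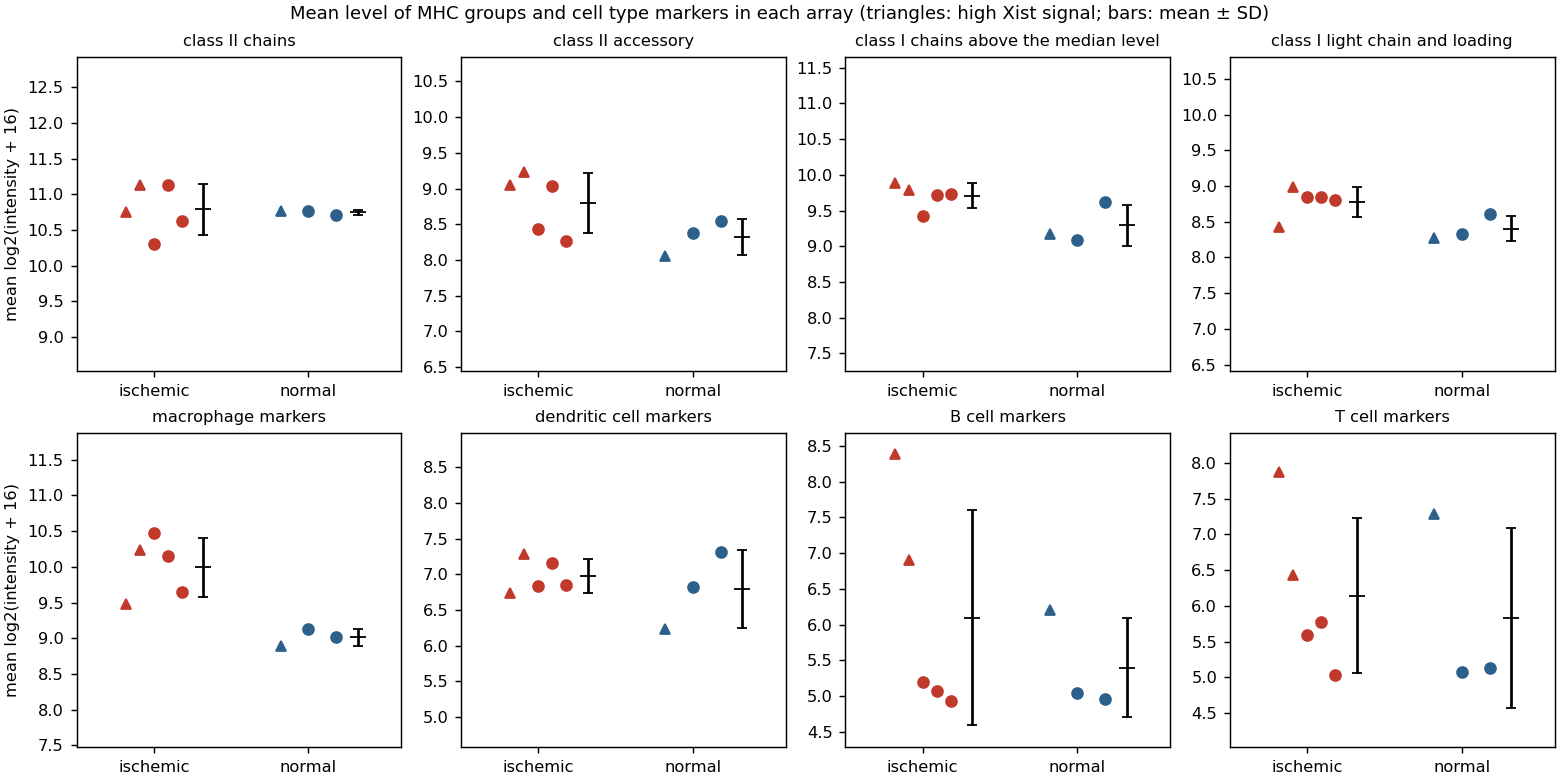
Mean level per array of 4 groups of MHC genes (top) and of the markers of 4 cell types (bottom), as log2(intensity + 16), with ischemic arrays left of normal ones, triangles for high Xist signal and bars for mean ± SD (n = 5 and n = 3). The macrophage markers are higher in all 5 ischemic arrays than in the normal ones, the class II chains overlap, and B and T cell markers are highest in arrays with high Xist signal.

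Markers of macrophages, dendritic cells and other cell types were set beside these values. The mean level of 10 macrophage markers was 9.48, 10.23, 10.47, 10.15 and 9.65 in the ischemic arrays, against 8.89, 9.13 and 9.02 in the normal arrays, with no overlap. All 10 had a positive difference (54.8% of all genes), with a median of 0.83. In 4 of them all ischemic arrays lay above all normal ones (1.89% of all genes), and 0 passed limma. Lyz2, or lysozyme, differed by 0.38 ± 0.23. The array with the highest macrophage mean, ischemic 3, had the lowest levels of H2-Aa, H2-Ab1, H2-Eb1 and Cd74 of all 8 arrays. By contrast, H2-Ea was lowest in normal 1 and H2-Eb2 in normal 2. Another bright probe set of H2-Aa was lowest in normal 1 (10.74), and the remaining bright one in ischemic 3 (9.95). Of 8 dendritic cell markers 4 had a positive difference, with a median of 0.10 and mean levels from 6.74 to 7.29 in ischemic and from 6.23 to 7.32 in normal arrays, and Itgax, or CD11c, differed by −0.01 ± 0.44. Of 6 T cell markers 5 had a positive difference, with a median of 0.26, and ischemic 1 and normal 1 had the highest mean levels, 7.88 and 7.28. Of 10 fibroblast markers 5 were bright, and the median difference over all 10 was 0.52. The mean of 9 proximal tubule markers was between 6.43 and 7.75 in ischemic and between 8.98 and 10.67 in normal arrays, and all 9 were lower, with a median of −3.09. The part of these cell types in the MHC values was not tested.

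The 3 arrays of high Xist signal and the other 5 gave different pictures. Within the high-signal arrays, ischemic 1 and 2 against normal 1, 31 of the 36 genes had a positive difference, against 54.2% of all genes, with a median of 0.51. Within the low-signal arrays, ischemic 3, 4 and 5 against normal 2 and 3, 16 of 36 (44.4%) did, against 51% of all genes, with a median of −0.03. The median of the class II chains was 0.51 in the first set and −0.08 in the second, and that of the class I chains 0.48 and −0.01. For the light chain and loading genes the medians were 0.39 and 0.34, but Erap1 turned between the sets, and B2m, Psmb10 and Tap2 were negative in the second only (−0.19, −0.057 and −0.068). The first set holds a single normal array, so normal 1 enters every one of its differences, and the difference between the sets was not tested. Normal 1 was the lowest of all 8 arrays in H2-D1, H2-Ea, H2-M3, B2m, Psmb8, Psmb9 and Tapbp. It was also lowest in Ciita, by a narrow margin to normal 3, and in the dim genes H2-M9 and H2-Q2.

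Along chromosome 17 the genes of one role are interleaved with those of another. The order here is that of the RefSeq table among the genes of the set, with any genes between them left out. In it, H2-DMa, H2-DMb2, Psmb9, Tap1, Psmb8 and Tap2 follow each other, with differences of 0.48, 1.30, 0.81, 1.04, 0.46 and −0.07. Next to them on the side of H2-Ob lie the class II chains H2-Ab1, H2-Aa, H2-Eb1, H2-Eb2 and H2-Ea, with differences from −0.22 to 0.25. The 2 genes that share the interval printed above, Psmb9 and Tap1, had near-equal differences, yet the array behind them was not the same, normal 1 for Psmb9 and normal 2 for Tap1.

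**Figure D4:**
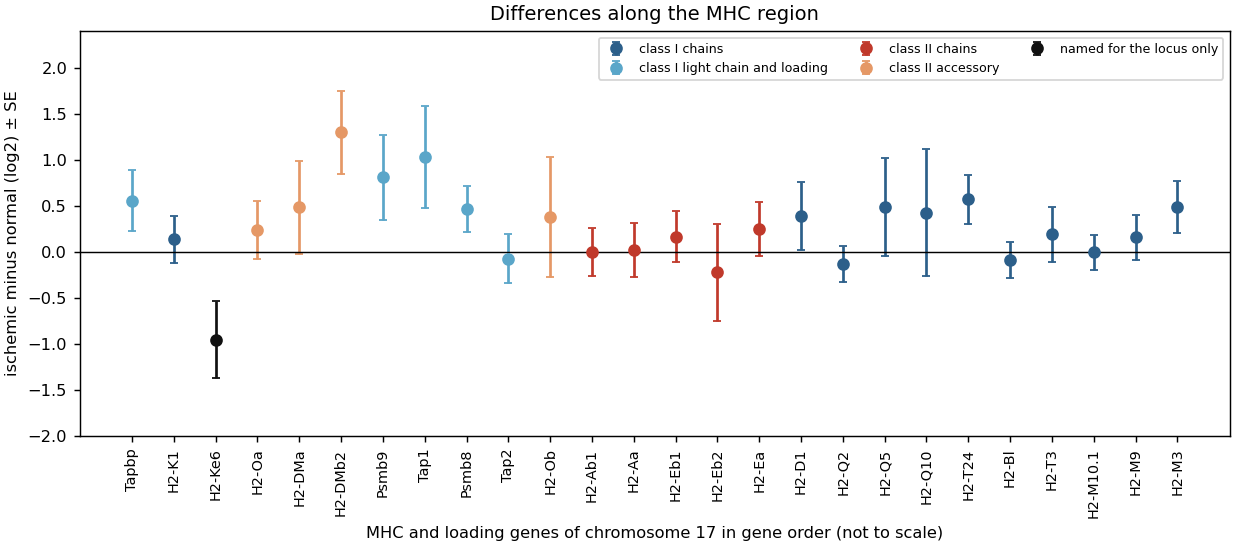
Difference between ischemic and normal arrays ± SE (log2 scale, limma, 5 and 3 arrays) for 26 genes of chromosome 17 in gene order, spaced evenly. The points from H2-DMa to Psmb8 lie between 0.46 and 1.30, and those of the class II chains between −0.22 and 0.25.

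Probe sets of a gene mostly had the same direction where they were bright. Of the 36 genes, 17 had more than 1 probe set. The 3 bright probe sets of H2-Aa differed by 0.02 to 0.17, those of H2-Ab1 by 0.0004 to 0.21 and those of H2-K1 by 0.14 to 0.28. Tapbp gave 0.56 and 0.13, Cd1d1 0.34 and 0.89, and B2m −0.06 and 0.03.

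**Figure D5:**
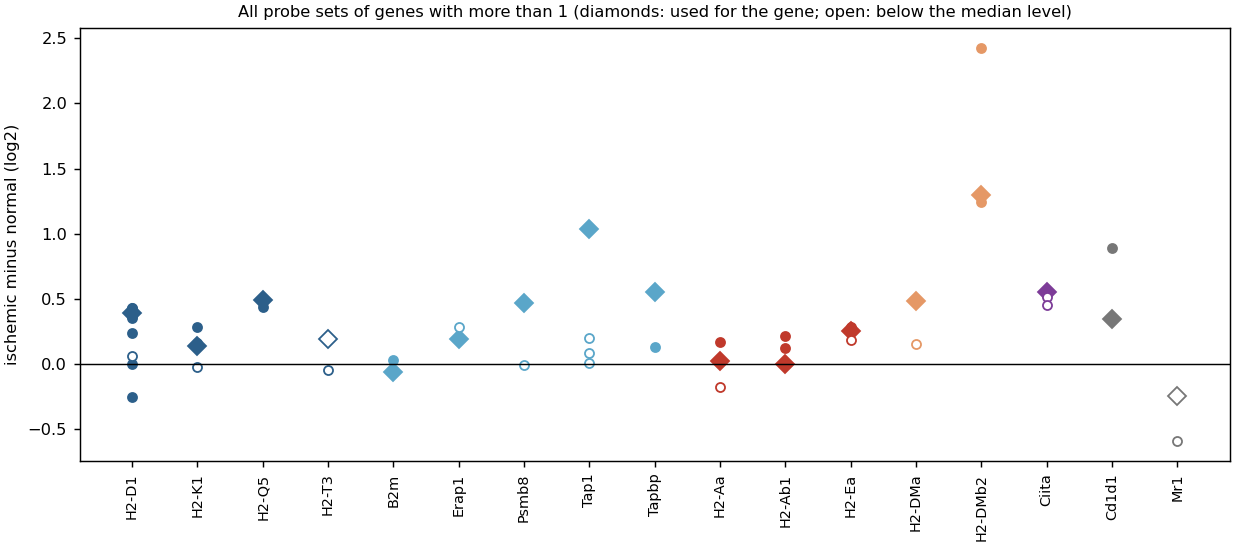
Difference between ischemic and normal arrays (log2 scale) for every probe set of the 17 genes with more than 1, with diamonds for the probe set that stands for the gene and open marks for dim ones. The 3 probe sets of H2-DMb2 lie at 1.25 or above, those of H2-D1 spread from −0.25 to 0.43, and the bright Tap1 probe set lies apart from its 3 dim ones.

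Beyond the 36 genes, those of endosomal class II processing had positive differences with 1 exception. Besides enzymes that prepare peptides, they include a protease inhibitor and ubiquitin ligases. Of these 11 genes 10 had a positive difference (54.8% of all genes), with a median of 0.23, and 0 passed limma over all genes. Some were near 0, such as Ctsd at 0.009 ± 0.50. Ifi30, the lysosomal thiol reductase known as GILT, had 10.01, 10.78, 10.94, 10.64 and 10.08 in the ischemic arrays, against 8.80, 9.71 and 9.93 in the normal arrays. All its ischemic arrays lay above all normal ones, by 1.01 ± 0.35 (limma adjusted p = 0.493, exact permutation p = 0.0357). Marchf8, a ubiquitin ligase known to remove class II from the surface, had the only negative value of the list, −0.90 ± 0.42 (limma adjusted p = 0.738, exact permutation p = 0.125), with overlapping groups. Marchf1, the other Marchf gene of the list, went the other way, by 0.47 ± 0.31 (limma adjusted p = 0.883), also with overlapping groups. Ctsb, a cysteine protease, differed by 0.51 ± 0.30 and Cst3, an inhibitor of such proteases, by 0.07 ± 0.23. Of 11 genes of interferon gamma signalling 10 had a positive difference (54.8% of all genes), with a median of 0.36, and 0 passed limma. Cxcl10, an interferon-induced chemokine, had 8.21, 7.87, 7.75, 9.40 and 7.77 in the ischemic arrays, against 5.62, 7.04 and 7.87 in the normal arrays. Normal 3 lay among the ischemic arrays, and the difference was 1.35 ± 0.56 (limma adjusted p = 0.661, exact permutation p = 0.0714). Cxcl9 differed by 0.83 ± 0.42 and the transcription factor Irf1 by 0.52 ± 0.31, while Ifng itself was dim and differed by 0.36 ± 0.49. Of 6 co-stimulatory genes 4 had a positive difference, with a median of 0.07, among them Icosl at 0.57 ± 0.50 and Cd86 at 0.48 ± 0.44, while Cd40 was at −0.07 ± 0.49. None of these lists is set against the 36 genes by a test.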

How the data were processed

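The data were 8 Affymetrix mouse expression arrays of GFP-positive sorted kidney cells, 5 ischemic and 3 normal by their titles. Per the labels' protocols, RNA was isolated with Qiagen miRNeasy, amplified with NuGEN WT-Ovation Pico and labelled with NuGEN FL-Ovation, which can add spread between arrays. The authors deposited linear probe set intensities, 1 table for all arrays. Its software, background correction and scaling were not given in the sources used here. Each kidney is a separate sample by the labels.

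After 64 control probe sets were left out, the intensities of 45037 probe sets were taken as log2(value + 16) and quantile normalized, since the array quartiles differed by 0.28, 0.30 and 0.39 (lower, median, upper). A gene was its one-symbol probe set with the highest mean, named from the platform annotation supplied with the series, with no filter on dim genes. Groups were compared with limma 3.58.1 (lmFit, eBayes) in R 4.3.3, adjusted by Benjamini-Hochberg over all 18193 genes at 0.05, beside two-sided exact permutation tests over the 56 splits of the arrays. The fit was tested on simulated data. Promoters were searched in Python 3.11.15, and figures were drawn with matplotlib 3.10.9. Ribosomal centring used the cytosolic ribosomal protein genes.

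The genes, lists and tests were chosen with earlier results of these data known. Values in every array are given for the main chains, loading genes and regulators and for the largest differences, and pathway lists name their genes of lowest p and their brightest. H2-Eb2, H2-M3, H2-T24, Cd1d1 and Erap1, and further list genes named as partners, were added after their values were seen. An array counted as high in Xist when its level was nearer to the highest than to the lowest array. Alternatives were other pseudocounts, scalings, filters, probe set rules, eBayes settings, array weights, a replicate block, Xist signal and leaving out each array. Replicate numbers were checked for pairing. Protein sequences were not used here.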

Additional observations from a re-analysis of the deposited data

Results flagged for a closer look

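In 4 of the 36 genes (11.1%), against 11.5% of all genes, 1 ischemic array lay far from the other 4 by Dixon's test, which flags about 1 in 20 groups by chance. In each of them the array was ischemic 1, which also stood apart across all genes. H2-DMa was lowest there, at 6.59, with the other ischemic arrays from 8.28 to 8.91. H2-Ke6 was lowest there, at 6.79, with the others from 7.60 to 7.83. H2-Q10 was highest there, at 8.04, with the others from 4.65 to 5.35, and H2-T3 was highest at 5.42, with the others from 4.30 to 4.44. Without ischemic 1 the difference of H2-DMa was 0.87, against 0.48 with it. The cause was not tested.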

How the results depend on the processing

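With limma 0 of the 36 genes passed under any of the 22 alternatives, and the lowest adjusted p was 0.172, for H2-DMb2 without normal 3. Over all genes 279 passed with ribosomal centring, 31 with an eBayes trend, 15 and 12 above the 40th and 50th percentile of level, 5 with array weights, 2 with the mean of all probe sets, 1 with a pseudocount of 1, 1 with Xist signal as a term, and 0 to 113 with 1 array left out (113 without normal 3). The 384 genes higher at an unadjusted p under 0.05 became 234 with median centring, 78 with ribosomal centring, 235 and 215 above the 40th and 50th percentile, and 191 to 633 with 1 array left out. The 913 lower became 1890 with ribosomal centring, 569 above the median level, 596 without the arrays of high Xist signal, and 617 to 1113 with 1 array left out. Of the 36 genes, 1 had an unadjusted limma p under 0.05, H2-DMb2. That count was 5 without ischemic 1 (Ciita, H2-DMa, H2-DMb2, Psmb8 and Tapbp), 3 without normal 3 or when a gene's probe sets were averaged, and 0 without normal 1 or with the replicate block, and 1 or 2 otherwise. Over all genes, 633 were higher and 919 lower without ischemic 1, and 601 and 1113 without normal 3. With averaged probe sets 458 and 908 were, without normal 1 191 and 617, and with the replicate block 444 and 962. H2-DMb2 was not among the genes called with ribosomal centring, array weights or the replicate block, or without the high-Xist arrays, normal 1 or normal 2.

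Ribosomal centring moved the median of all genes to −0.22, the accessory median to 0.0034, the loading median to 0.01 and the genes above 0 to 13 of 36 (26% of all genes). The accessory median was −0.028 with array weights and −0.040 without the high-Xist arrays, under which 17 and 16 of the 36 genes were above 0 (52% and 51% of all genes). The class I median was 0.46 and 0.49, and class II minus class I −0.43 and −0.46, above the 40th and 50th percentile. That contrast, −0.17 with the settings used, was smaller with specific probe sets (−0.014), the mean of all probe sets (−0.046), a pseudocount of 64 (−0.053) and without the high-Xist arrays (−0.072), and larger with a pseudocount of 1 (−0.37) and either centring (−0.26). With 1 array left out the medians ran from 0.08 to 0.26 for class I chains, −0.07 to 0.19 for class II chains, 0.14 to 0.57 for accessory and 0.20 to 0.52 for loading genes, and class II minus class I from −0.29 to −0.0056. The genes above 0 ran from 22 to 30.

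The sign of a gene's difference turned as follows. Centring on medians gave H2-K1 −0.041, Psmb10 −0.17, Nlrc5 −0.071, H2-Aa −0.050, H2-Ab1 −0.022 and H2-M10.1 0.056. Ribosomal centring gave Cd1d1 −0.048, H2-Ea −0.066, H2-Oa −0.12, H2-T18 −0.0033, H2-T3 −0.0054, Erap1 −0.021, H2-Eb1 −0.17, H2-M9 −0.036, H2-K1 −0.28, H2-D4 −0.15, Psmb10 −0.41, Nlrc5 −0.31, H2-Aa −0.29 and H2-Ab1 −0.26. Probe sets specific to 1 sequence gave H2-D1 −0.25 and H2-T3 −0.048. Array weights gave H2-Q10 −0.14, H2-Ob −0.23, Cd1d1 −0.073, H2-Oa −0.028, H2-T18 −0.030, H2-T3 −0.0041, H2-Eb1 −0.016, H2-K1 −0.0034, Psmb10 −0.042, Nlrc5 −0.046, H2-Aa −0.17, H2-Ab1 −0.14, Tap2 0.056 and Mr1 0.015. Leaving out the high-Xist arrays gave H2-Q10 −0.22, H2-Ob −0.44, Cd1d1 −0.41, H2-Ea −0.037, H2-Oa −0.040, H2-T18 −0.28, H2-T3 −0.027, H2-Eb1 −0.082, H2-K1 −0.0097, Psmb10 −0.057, Nlrc5 −0.27, H2-Aa −0.27, H2-Ab1 −0.18, H2-Eb2 0.30 and Mr1 0.20. A pseudocount of 64 gave H2-M10.1 0.0002, and Xist signal as a term gave H2-Ab1 −0.014. With 1 array left out signs turned within the ranges −0.16 to 0.69 (H2-Q10), −0.0008 to 0.73 (H2-D1), −0.029 to 0.77 (H2-Ob), −0.10 to 0.45 (H2-Ea), −0.079 to 0.65 (H2-T18), −0.022 to 0.26 (H2-T3), −0.049 to 0.53 (Erap1), −0.011 to 0.22 (H2-K1), −0.027 to 0.17 (H2-D4), −0.039 to 0.25 (Psmb10), −0.18 to 0.53 (Nlrc5), −0.074 to 0.19 (H2-Aa), −0.090 to 0.13 (H2-Ab1), −0.061 to 0.041 (H2-M10.1), −0.18 to 0.091 (Cd74), −0.20 to 0.020 (B2m), −0.23 to 0.11 (Tap2), −0.16 to 0.036 (H2-Bl), −0.25 to 0.0061 (H2-Q2), −0.72 to 0.37 (H2-Eb2) and −0.44 to 0.032 (Mr1). These causes were not tested.

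Replicate numbers did not pair the samples (correlations of deviations 0.16, −0.09 and 0.10 for numbers 1 to 3). A replicate block over these 6 arrays gave 444 genes higher and 962 lower at an unadjusted p under 0.05, 0 passing, medians of 0.02 for class II chains and 0.19 for class I chains, and turned signs for Erap1 −0.047, H2-D4 −0.15, H2-Ab1 −0.020 and H2-M10.1 0.021. Signals near the lower end of the scale limit what the 10 dim genes can show.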
